A study of Mus musculus with 30 samples.

Results

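The genes described here encode the proteins of the cytosolic ribosome. They were taken by symbol, as names beginning Rpl or Rps with a number, plus Rplp0, Rplp1, Rplp2 and Rpsa, without pseudogene names containing -ps and without the S6 kinase genes named Rps6k. This gave 85 genes among the 13076 that the bone marrow (BM) table of 13353 genes and the adipose tissue macrophage (ATM) table of 17059 genes share. Of these, 31 encode proteins of the small (40S) subunit, 45 encode proteins of the large (60S) subunit, and 9 are paralogs or other names that meet the rule: Rpl3l, Rpl7l1, Rpl22l1, Rpl36al, Rpl37rt, Rpl39l, Rps4l, Rps27l and Rps19bp1. The last of these encodes a binding partner of a ribosomal protein and not a ribosomal protein, and GENCODE annotates Rpl37rt and Rps4l as transcribed processed pseudogenes. Rpl26 was not analysed here.

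RNA-seq was done on 30 mouse libraries, 15 of whole BM and 15 of ATMs, which were sorted from visceral fat as cells bearing F4/80, with 3 libraries in each of 5 groups per tissue. Every recipient was lethally irradiated (700 cGy and then 400 cGy) and received CD45.2+ BM from Shp2E76K/+;LysM-Cre+ donors mixed 1 to 1 with CD45.1+ competitor BM from Boy/J mice, as the labels describe it, although no library's own label names its donor and every one gives the genotype as C57BL/6J. LysM-Cre drives recombination in myeloid cells, and Shp2E76K is a gain-of-function form of the phosphatase encoded by Ptpn11. The WT group had lean recipients, and the other 4 groups had leptin-deficient Ob/Ob recipients treated for 30 days from week 8 after transplantation. The Vehicle group received vehicle, the second Ob/Ob group the GLP-1R agonist beinaglutide at 3 mg/kg under the skin, the third an anti–IL-17A antibody at 200 µg per mouse into the peritoneum 3 times a week, and the Combo group both agents. The labels give the mice an age of 12 to 14 weeks, and both sexes were used. The paper transplanted adult recipients, so with treatment from week 8 this cannot be the age of treated mice at sampling. The BM libraries can hold recipient, donor and competitor blood cells together, so that fewer cells of a type and less RNA per cell cannot be told apart.

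Each ribosome is built from 2 subunits whose proteins are needed in equal numbers, and growing cells need more of the whole set. The mRNAs of vertebrate ribosomal proteins begin with a C followed by a run of pyrimidines, the TOP motif, through which mTORC1 and the RNA-binding protein Larp1 set how fast they are translated. Their transcription responds to Myc, among other factors. Haploinsufficiency of several of them causes Diamond-Blackfan anemia, in which red cell precursors fail. Free Rpl5 and Rpl11, bound to 5S rRNA, can bind Mdm2 and so raise p53.

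The start of the transcript is where the TOP motif lies, and it is shown for some of the genes named below. Starts with the motif are more frequent among those shown than in the set as a whole. RefSeq promoter entries for GRCm38.p6 were found for 64 of the 85 genes (76 promoters). Each line holds 15 bases before and 15 from the annotated start, 5′ to 3′ on the gene's strand, with the unbroken pyrimidine run that begins at the start in capitals.
Rps6: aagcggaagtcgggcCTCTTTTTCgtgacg
Rpl38: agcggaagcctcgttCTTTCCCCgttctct
Rplp2: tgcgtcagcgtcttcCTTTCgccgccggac
Rps10: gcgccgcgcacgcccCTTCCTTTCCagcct
Rps15a: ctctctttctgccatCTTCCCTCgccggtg
Rps18: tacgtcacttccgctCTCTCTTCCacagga
Rps24: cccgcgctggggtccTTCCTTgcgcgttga
Rpl27: acgctctgttcctgtCTgctgctcgtgctg
Rps3a1: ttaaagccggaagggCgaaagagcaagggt
Rplp0: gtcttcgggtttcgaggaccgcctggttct
The first 6 begin with C and carry at least 4 further pyrimidines. The windows lie at chr4:86857353-86857382 on the - strand, chr11:114668565-114668594 on the + strand, chr7:141447636-141447665 on the + strand, chr17:27635230-27635259 on the - strand, chr7:118116133-118116162 on the - strand and chr17:33955651-33955680 on the - strand. The last 4 do not begin this way at the annotated start, with Rps24 starting at a T inside its run, Rpl27 carrying a run of only 2, and Rplp0 starting at a purine. They lie at chr14:24490663-24490692 on the + strand, chr11:101442230-101442259 on the + strand, chr3:86142654-86142683 on the - strand and chr5:115559452-115559481 on the + strand.

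By this strict reading a TOP-like start was present in 17.1% of the promoters of the genes described here and in 2.51% of all 32851 mouse promoters in the table. The letters CCGGAAG, a core recognised by ETS factors, occurred on either strand in 34.2% of their promoters (250 bases before and 50 from the start) against 8.86% of all promoters and 16.8% of those of genes in both count tables. AAGATGGC, the YY1 core that contains the ATG of many ribosomal protein genes, occurred in 10.5% against 2.75% and 4.27%. Annotated starts can be off by some bases, and a match or its lack says nothing of factor binding.

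Depth ran from 31086184 to 39925495 gene counts per BM library and from 24876074 to 45300263 per ATM library. Some facts about the libraries bear on what follows. Xist, transcribed only from an inactive X chromosome, counted 5284 to 6250 in the Vehicle and 3382 to 3555 in the Combo BM libraries, but 0 to 6 in the WT and GLP-1R agonist libraries and 87 to 125 with the antibody, and the Y-linked Ddx3y was lowest in the same Vehicle and Combo groups. The ATM libraries split the same way, at 747 to 1400 Xist counts in Vehicle and Combo and at most 53 elsewhere. Of the contrasts below only Combo against Vehicle compares groups on the same side of this split. In all others sex and group cannot be told apart. Among ATM libraries those of the Vehicle group stood apart and went against the F4/80 sort: Adgre1, which encodes F4/80, reached 30.2 to 52.4 CPM (counts scaled to a common library size) in them and 192 to 894 in the others, while the granulocyte gene S100a8 stood at 9249 to 9931 CPM in Vehicle and at 55.68 to 60.04 in WT. Not every macrophage gene was lower in Vehicle: Cd68 stood at 505 to 552 CPM there and at 261 to 263 in WT. The sum of 12 monocyte and macrophage markers was 3123 to 3374 CPM in Vehicle and 3842 to 4085 in WT. Summed over 10 mature neutrophil markers, the Vehicle ATM libraries held 18259 to 19419 CPM, against 521 to 528 in WT and 7897 to 8116 in Combo. The sum of 6 epididymal markers was 2993 to 3143 CPM in WT ATMs, 147 to 178 with the antibody and at most 47.0 in the other groups. In BM the first WT library differed more from the other WT libraries (chi-square per degree of freedom 34.2 and 26.2) than these did from each other (2.92). No source says which libraries of a tissue came from which mice beyond naming 3 per group, so p-values measure the spread between these libraries.

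Together the 85 genes made up a larger share of BM than of ATM counts. In BM the share was 7.56, 8.22 and 8.21% in the WT libraries, 6.46, 6.51 and 6.61% in Vehicle, 8.02, 7.90 and 7.99% with the GLP-1R agonist, 5.91, 5.99 and 5.88% with the anti–IL-17A antibody and 5.24, 5.17 and 5.26% in Combo. Every Combo library thus lay below every library of the other groups, every library of the antibody group lay below Vehicle, and WT and GLP-1R agonist libraries overlapped. In ATMs the share was 1.068, 1.026 and 1.030% in WT, 1.092, 1.019 and 1.095% in Vehicle, 1.224, 1.219 and 1.199% with the agonist, 1.318, 1.312 and 1.234% with the antibody and 1.497, 1.504 and 1.507% in Combo. WT and Vehicle overlapped there, and the Combo libraries lay above all others, so the order of Combo was opposite in the tissues. No test was run on this summed measure.

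**Figure D1:**
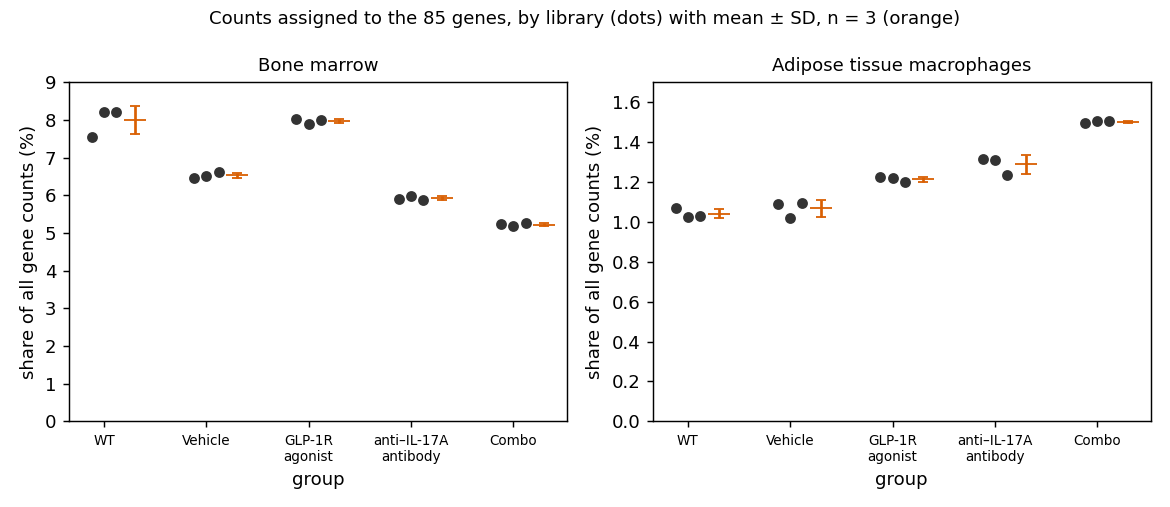
Share of all gene counts (%) assigned to the 85 cytosolic ribosomal protein genes in each library (dots), with the mean and SD of 3 libraries beside them in orange, by group, for bone marrow (left) and adipose tissue macrophages (right). Combo is the lowest group in bone marrow, at 5.17 to 5.26%, and the highest in macrophages, at 1.497 to 1.507%.

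A share of all counts falls when other transcripts rise, so each gene was tested after scaling libraries by TMM, which sets the bulk of genes equal. Normalised counts below are on that scale, and a gene is called changed where its Benjamini-Hochberg adjusted p (edgeR quasi-likelihood test, over every gene of the tissue) is under 0.05. Most genes of either table changed somewhere: in BM 95.1% of all genes and 84 of the 85 differed among the 5 groups, the exception being Rpl30, and in ATMs 73.5% of all genes and 81 of the 85 did, the exceptions being Rpl30, Rpl34, Rpl37rt and Rps27. TMM and library totals gave different pictures where the composition of the libraries differed most. In ATMs the median of all genes for Vehicle against WT was -0.21 on the TMM scale and -0.65 on library totals, and the ribosomal genes exceeded it by 0.74 on either. Rescaling shifts every gene of a contrast by nearly the same amount, so this agreement is fixed in advance and is no test. Values relative to the median gene are given throughout, and they depend on which genes are kept.

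**Figure D2:**
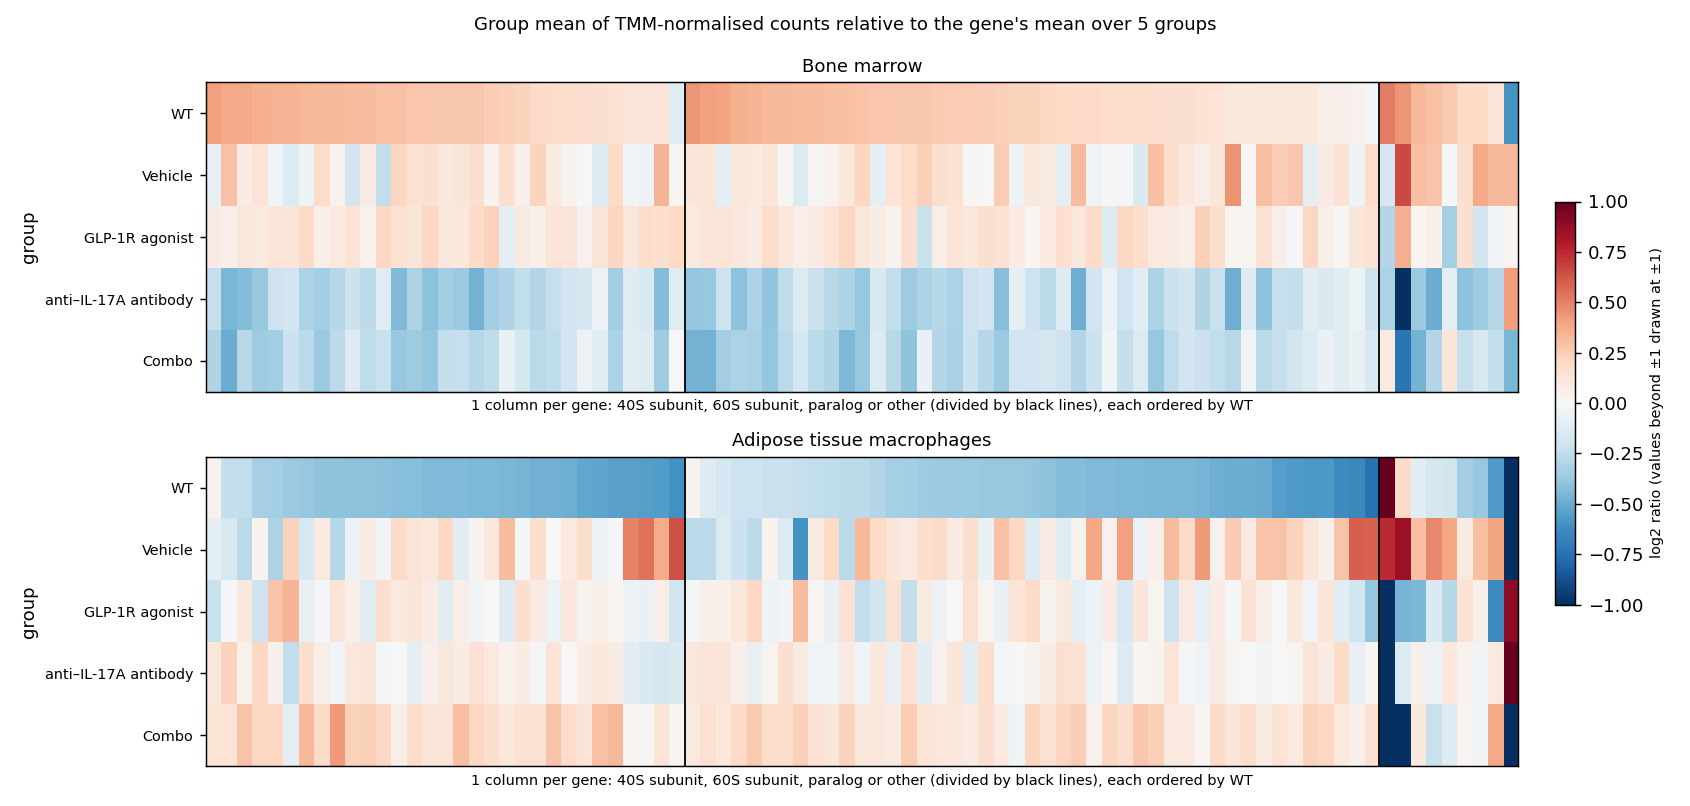
Mean of TMM-normalised counts of each gene in each group relative to that gene's mean over the 5 groups (log2, red higher, blue lower, clipped at 1), for bone marrow (top) and macrophages (bottom). Each column is 1 gene, ordered within a subunit by its WT value in that tissue. WT is the highest group for 58 of the 85 genes in bone marrow and the lowest for 70 of the 85 in macrophages.

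In the BM of obese, vehicle-treated recipients the ribosomal protein genes were mostly lower than in WT recipients. Of the 85 genes 58 fell and 11 rose, beside 38.8% of all genes lower and 37.8% higher, and none passed the test with a change over 2-fold, which 19.5% of all genes did. Their median log2 fold change was -0.14 against -0.017 for all genes. Rps3a1, a 40S protein also linked to cell growth, had 58223, 59506 and 61053 normalised counts in WT and 40497, 40902 and 41149.9 in Vehicle (log2 fold change -0.54 ± 0.021 SE, edgeR adjusted p = 1.31e-24). The groups were apart. The lowest value was that of Rpl3l, a paralog known from striated muscle, which was at 23 to 97 raw counts in these libraries (log2 fold change -0.67 ± 0.25 SE, edgeR adjusted p = 0.0141). Its call was lost without WT library 2 (-0.48, edgeR adjusted p = 0.103) or Vehicle library 3 (-0.38, edgeR adjusted p = 0.156).

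The largest rise was that of Rps4l, an annotated pseudogene copy of Rps4x, from 160.2, 129.9 and 149.7 to 300.5, 263 and 266 (log2 fold change 0.91 ± 0.12 SE, edgeR adjusted p = 4.64e-09). Rpl27, a 60S protein, rose from 11381, 12955 and 12842 to 15201, 15829.8 and 15724 (log2 fold change 0.33 ± 0.035 SE, edgeR adjusted p = 6.22e-09), and Rpl29, also of the 60S subunit, rose by 0.20 (edgeR adjusted p = 4.31e-05), a call lost on library totals (0.075, edgeR adjusted p = 0.0882). Of the 31 40S genes 27 fell and 1 rose, and of the 45 60S genes 29 fell and 7 rose. All of the P-stalk genes fell, the stalk being the arm that recruits elongation factors: Rplp0 (-0.32, edgeR adjusted p = 5.56e-16), Rplp1 (-0.085, edgeR adjusted p = 0.0105) and Rplp2 (-0.12, edgeR adjusted p = 0.000128). Of 13 genes listed here as Diamond-Blackfan anemia genes 11 fell and 0 rose, among them Rps19 (-0.14, edgeR adjusted p = 2.41e-06). The list need not be complete, and Rpl27, which rose, is not on it. The 5S RNP partners differed: Rpl5 fell (-0.48, edgeR adjusted p = 1.74e-22), while the value for Rpl11 was -0.013 (edgeR adjusted p = 0.726).

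The 4 X-linked genes were all lower in Vehicle, at log2 fold changes of -0.38 for Rpl10, -0.22 for Rpl36a, -0.24 for Rpl39 and -0.30 for Rps4x, in libraries whose Xist counts differed as given above. Most of the set had the same sign, with negative values for 66 of the 85 genes. B cell markers also moved with this comparison: all 10 in the table fell, and their sum was 2086 to 2212 CPM in WT and 1008 to 1054 CPM in Vehicle. The 5 erythroid markers in the table, among which there is no globin, summed to 995 to 1018 CPM in WT and 682 to 692 CPM in Vehicle, with 4 lower. The 12 monocyte and macrophage markers summed to 14125 to 14385 CPM in WT and 6916 to 7046 CPM in Vehicle, with 5 higher and 6 lower, and the 10 immature granulocyte markers to 39332 to 42071 and 56006 to 57662 CPM, with 4 higher and 5 lower. The part of these cells and of sex in the result was not tested. Without the first WT library 61 genes fell and 11 rose, with a median of -0.18, and with libraries scaled by their totals alone 68 fell and 2 rose (median -0.26, all genes -0.14).

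With the GLP-1R agonist the BM ribosomal genes changed in both directions. Against Vehicle 29 rose and 23 fell (36.5% and 36.3% of all genes), none by more than 2-fold (16.7% of all genes passed both limits), and the median was 0.0061 for these genes and 0.010 for all. The largest rise was that of Rps3a1, from 40497, 40902 and 41149.9 to 55689, 56019.9 and 56018 (log2 fold change 0.45 ± 0.021 SE, edgeR adjusted p = 7.93e-22), and these libraries did not overlap with Vehicle. Rplp0, the base of the P-stalk, rose from 71719.6, 71356 and 72669 to 89406, 89751 and 89878 (log2 fold change 0.32 ± 0.023 SE, edgeR adjusted p = 4.87e-16). Falls were led by Rpl36al, an autosomal copy of the X-linked Rpl36a, from 7247, 7501 and 7631 to 5140.2, 4993 and 5061 (log2 fold change -0.56 ± 0.029 SE, edgeR adjusted p = 3.31e-20).

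Rpl34 and Rpl27 followed, at -0.47 (edgeR adjusted p = 0.00198) and -0.43 (edgeR adjusted p = 8.11e-11), and Rpl34 rested on 107 counts in its lowest library and lost its call on library totals (-0.23, edgeR adjusted p = 0.110). By group, 13 of the 31 40S genes rose and 4 fell, 16 of the 45 60S genes rose and 13 fell, and of the 9 paralogs and other names 0 rose and 6 fell. The comparison shares its Vehicle libraries with the one before and crosses the split in Xist. The direction depended on scaling: on library totals 66 rose and 3 fell, with medians of 0.24 for these genes and 0.24 for all, so relative to the median gene the set was at -0.0037. All 5 erythroid markers rose, to a sum of 2121 to 2172 CPM, all 10 B cell markers fell, to 369.8 to 383 CPM, and 12 of 14 proliferation markers rose. Monocyte and macrophage markers summed to 4155 to 4158 CPM, with 4 higher and 7 lower than in Vehicle, immature granulocyte markers to 37315 to 37489.9 CPM, with 2 higher and 6 lower, and mature neutrophil markers to 53215 to 53821 CPM against 81398 to 84277 CPM in Vehicle, with 3 higher and 6 lower. Their part was not tested.

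With the anti–IL-17A antibody nearly all of these genes were lower in BM than with vehicle. Of the 85, 74 fell and 2 rose, beside 36.6% and 36.4% of all genes, with a median of -0.36 against 0.0065 for all. Both that rose are 40S genes, Rps3a1 (0.13, edgeR adjusted p = 1.19e-06) and Rps4x (0.079, edgeR adjusted p = 0.00171). One gene, Rpl39l, passed with a change over 2-fold, a rule that 16.1% of all genes met. This paralog of the exit tunnel protein Rpl39 is best known from testis, and its raw counts were 35, 38 and 29 in Vehicle and 4, 3 and 6 with the antibody (log2 fold change -3.21 ± 0.42 SE, edgeR adjusted p = 9.76e-09), while Rpl39 itself, at far higher counts, changed by -0.40 (edgeR adjusted p = 6.07e-17).

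Among abundant genes Rpl27 fell the most, from 15201, 15829.8 and 15724 to 8017, 8284 and 8105 normalised counts (log2 fold change -0.94 ± 0.035 SE, edgeR adjusted p = 1.6e-17). Rpl41, which encodes the shortest of these proteins, fell from 27667, 29571 and 30591 to 16761, 17368 and 16163 (log2 fold change -0.80 ± 0.061 SE, edgeR adjusted p = 2.27e-07). The groups were apart for both. Values lay nearer to 0 for the P-stalk base Rplp0 (0.029, edgeR adjusted p = 0.246) and for Rps6, the target of the S6 kinases, which stood at 25793, 27068 and 27403 in Vehicle and 23078, 23109 and 22605 with the antibody (log2 fold change -0.22 ± 0.040 SE, edgeR adjusted p = 0.000124). Rps19, at -0.52, and Rps27a, which is made as a fusion with ubiquitin, at -0.39, fell with edgeR adjusted p = 3.03e-22 and 1.49e-10.

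In all 28 of the 31 40S genes and 39 of the 45 60S genes fell. On library totals 55 fell and 16 rose, the median of all genes moved to 0.18, and the ribosomal genes were at -0.37 relative to it. The contrast crosses the split in Xist. All 5 erythroid markers rose here, to 1366 to 1405 CPM, and 10 of 14 proliferation markers rose. The sum of the 10 mature neutrophil markers was 81398 to 84277 CPM in Vehicle and 60442 to 61365 CPM with the antibody, with 6 higher and 4 lower on the TMM scale, and that of the 10 immature granulocyte markers was 56006 to 57662 and 46619.6 to 47132 CPM, with 5 higher and 5 lower. Their part was not tested.

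In Combo BM most of these genes were lower as well. Against Vehicle 71 genes fell and 2 rose (35.8% and 37.9% of all genes), and the median was -0.34 against 0.021. Rpl39l was the only one past 2-fold (17.7% of all genes), at 9, 16 and 17 raw counts (log2 fold change -1.39 ± 0.34 SE, edgeR adjusted p = 0.000357). Rps24, a Diamond-Blackfan anemia gene, fell from 61992, 64416 and 63954 to 37163, 35980.3 and 37033 (log2 fold change -0.79 ± 0.026 SE, edgeR adjusted p = 9.63e-25). Rpl22l1, the paralog of Rpl22, fell from 4395, 4189 and 4209.5 to 2531, 2466 and 2464 (log2 fold change -0.78 ± 0.057 SE, edgeR adjusted p = 6.5e-10), and Rpl22 itself by less, at -0.34 (edgeR adjusted p = 1.78e-15). The groups did not overlap for Rps24 or Rpl22l1.

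Among the genes that rose was Rpl7l1, a nucleolar relative of Rpl7 that acts in ribosome assembly (0.14, edgeR adjusted p = 7.26e-05). Without Vehicle library 2 or 3 or Combo library 1 or 3 the number that rose was 1. Vehicle and Combo BM libraries were on the same side of the split in Xist, although all 5 sex-linked transcripts read, Xist included, fell in Combo. B cell markers fell to 274 to 285 CPM and T cell markers to 45.2 to 48.5 CPM, with all 10 and all 8 lower, 12 of 14 proliferation markers rose, and immature granulocyte markers stood at 67011 to 67980.5 against 56006 to 57662 CPM. Their part in the result was not tested.

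Measured against WT, 81 of the 85 genes were lower in Combo BM and only Rps2, which lines the mRNA entry channel, was higher (0.12, edgeR adjusted p = 0.000356), a value that turned to -0.030 on library totals (edgeR adjusted p = 0.376). Of all genes 37.2% were lower and 36.1% higher. The median was -0.47 against -0.025, and past 2-fold (14.3% of all genes) Rpl39l again stood alone, at -1.18 (edgeR adjusted p = 0.00199). Rpl13a, a 60S protein that also takes part in inflammatory translational control, went from 74556, 75817 and 74743 to 40410.4, 39792 and 39193 (log2 fold change -0.91 ± 0.021 SE, edgeR adjusted p = 2.41e-32). Rpl17, at the exit tunnel, went from 49134, 51219 and 50429.9 to 27379, 27097 and 27298 (log2 fold change -0.88 ± 0.022 SE, edgeR adjusted p = 1.89e-31). All 13 listed Diamond-Blackfan anemia genes and both 5S RNP genes fell in this contrast. Without the first WT library 79 genes fell and 1 rose, at a median of -0.50. The groups lay on opposite sides of the split in Xist. All 10 B cell and all 8 T cell markers fell as well, 10 of 12 monocyte and macrophage markers fell, from 14125 to 14385 to 7616 to 7728 CPM in sum, and 9 of 10 immature granulocyte markers rose. Their part was not tested.

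**Figure D3:**
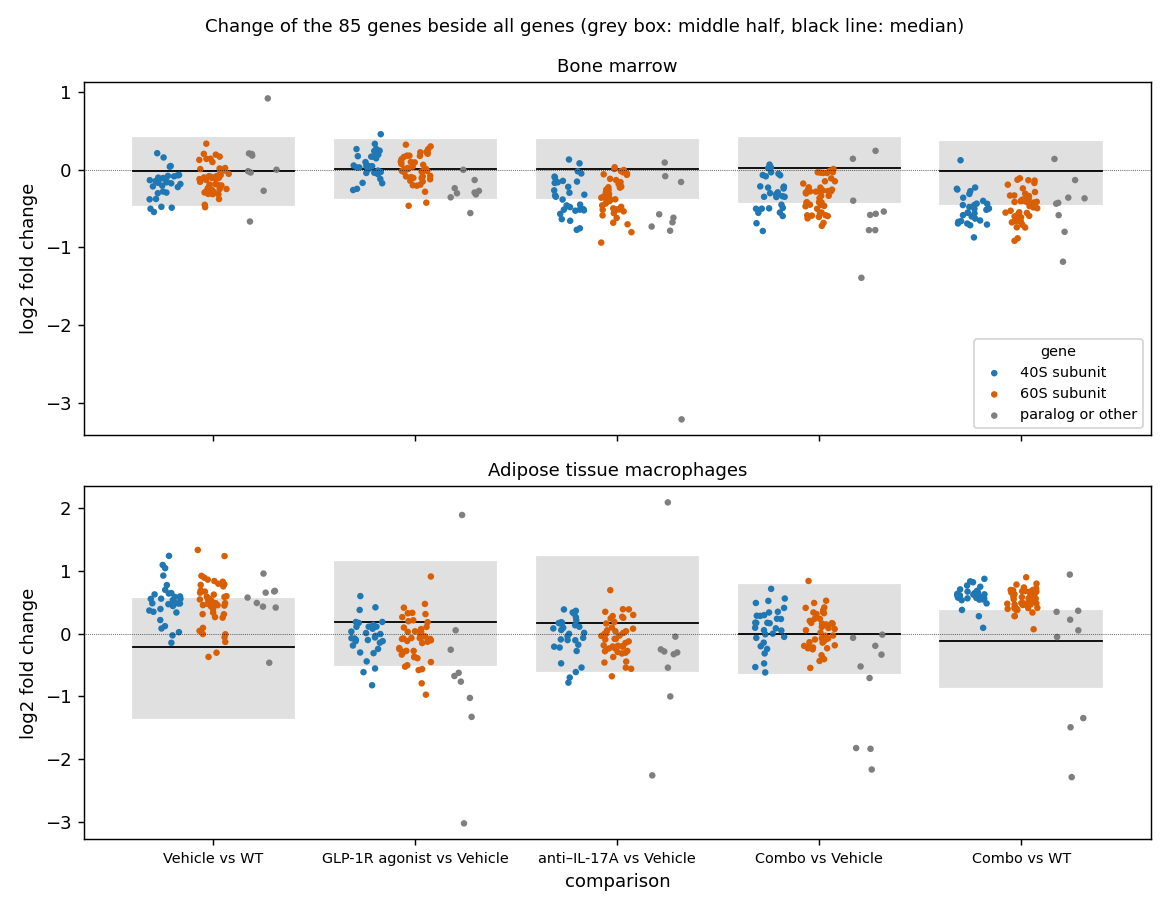
Log2 fold change of each of the 85 genes (dots, coloured by subunit) in the 5 comparisons in bone marrow (top) and macrophages (bottom), with the middle 50% of all genes as a grey box and their median as a black line. In bone marrow the genes sit below the all-gene median with the antibody (-0.36 against 0.0065) and Combo (-0.34 against 0.021), and in macrophages above it in Vehicle against WT (0.52 against -0.21).

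In ATMs the contrast of Vehicle with WT ran the other way. Here 68 of the 85 genes rose and 1, Rpl3, fell, beside 24.3% and 32.6% of all genes, with a median of 0.52 against -0.21. Past 2-fold, where 35.4% of all genes were called, 5 genes rose. Rpl38, a 60S protein known from tail-short mice, had 1282, 1146 and 1149.5 normalised counts in WT and 3270.2, 2728 and 3011 in Vehicle (log2 fold change 1.33 ± 0.10 SE, edgeR adjusted p = 8.38e-09). Rps24 went from 2163, 2021 and 2003 to 4907, 4626 and 5068 (log2 fold change 1.24 ± 0.071 SE, edgeR adjusted p = 4.19e-10), and Rpl27 from 2039, 1974 and 1775 to 5004, 4264 and 4360 (log2 fold change 1.24 ± 0.080 SE, edgeR adjusted p = 2.31e-09). The Vehicle libraries were above every WT library for all of them, and Rps20 (1.04, edgeR adjusted p = 6.96e-10), of the 40S head, also passed.

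Rpl3, which lies close to the peptidyl transferase centre, fell from 11149.9, 10578 and 10611 to 8274, 8112 and 8641 (log2 fold change -0.37 ± 0.045 SE, edgeR adjusted p = 3.83e-06). The P-stalk genes all rose, at 0.55 for Rplp0, 0.45 for Rplp1 and 0.78 for Rplp2, with edgeR adjusted p of 2.43e-08, 5.62e-05 and 5.72e-07. Rpl5 and Rpl11 rose as well, by 0.39 and 0.49 (edgeR adjusted p = 7.94e-05 and 6.24e-05). A smaller rise was that of Rpsa, a 40S protein also known as a laminin receptor, at 7054, 7391 and 7279 in WT and 8101, 7361 and 8144 in Vehicle, where the groups overlapped (log2 fold change 0.12 ± 0.048 SE, edgeR adjusted p = 0.0458). Of the 13 listed Diamond-Blackfan anemia genes 11 rose and 0 fell.

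This result depends on how libraries are scaled. The TMM factors were 1.11 to 1.12 in WT and 0.814 to 0.827 in Vehicle ATMs, and on library totals 28 genes rose and 15 fell, with a median of 0.085 beside -0.65 for all genes. Relative to the median gene, a value that scaling hardly can move, the set was at 0.74 on library totals and 0.74 with TMM. It was at 0.53 where only genes with at least 10 counts in every ATM library were kept. The Vehicle libraries were those with few F4/80 transcripts and many neutrophil transcripts, and all 10 of the immature granulocyte markers and all 10 of the mature neutrophil markers rose in this contrast. Marker sums fell from WT to Vehicle for B cells (6892 to 7357 and 1413 to 1546 CPM) and for fibroblasts and endothelium (15071 to 15956 and 6874 to 7229 CPM). The adipocyte sum rose (1528 to 1549 and 4222 to 4500 CPM). The groups also lay on opposite sides of the split in Xist. Cell makeup, sex and group thus cannot be told apart.

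Against Vehicle, ATMs of mice given the GLP-1R agonist had 15 of the genes higher and 29 lower (31.8% and 22% of all genes), and the median was -0.077 against 0.19. Rpl3 rose the most among abundant genes, from 8274, 8112 and 8641 to 16102, 15925 and 15013 (log2 fold change 0.91 ± 0.045 SE, edgeR adjusted p = 8.87e-11), and Rps3a1 rose by 0.60 (edgeR adjusted p = 2.55e-08). Rpl38 fell from 3270.2, 2728 and 3011 to 1409.5, 1478 and 1706 (log2 fold change -0.97 ± 0.10 SE, edgeR adjusted p = 3.63e-07). Past 2-fold, where 31.8% of all genes stood, Rpl39l rose (log2 fold change 1.89 ± 0.50 SE, edgeR adjusted p = 0.00501) from 22 to 53 raw counts in Vehicle to 115 to 214. Rps4l and Rpl3l fell, Rps4l at -1.33 (edgeR adjusted p = 4.15e-05) and Rpl3l at -3.02 (edgeR adjusted p = 0.0156), the latter resting on 1 to 9 counts a library with the agonist and losing its call without agonist library 2 (-2.58, edgeR adjusted p = 0.0550).

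Of the 10 mature neutrophil markers 9 fell, and the groups lay on opposite sides of the split in Xist. The split between rises and falls moved with scaling: with DESeq2 size factors 11 rose and 34 fell, and on library totals 36 rose and 15 fell. Relative to the median gene, a value that scaling hardly can move, the set was at -0.27 on totals and -0.27 with TMM. The value was -0.11 where only genes with at least 10 counts in every ATM library were kept. Neutrophil markers stood at 354 to 357 CPM and macrophage markers at 9485 to 9827 CPM in the agonist libraries, against 3123 to 3374 in Vehicle, and their part was not tested.

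The antibody alone gave a like mixture in ATMs, with 18 genes higher and 30 lower than Vehicle (33.1% and 25% of all genes) and a median of -0.066 against 0.17. Rpl39l rose past 2-fold (log2 fold change 2.09 ± 0.51 SE, edgeR adjusted p = 0.00235), at 230 to 319 raw counts, and Rpl3l fell past it (log2 fold change -2.26 ± 0.93 SE, edgeR adjusted p = 0.0481) at 4 to 29, a call lost on library totals (-1.91, edgeR adjusted p = 0.0835) and without Vehicle library 2 or 3 or antibody library 1 or 3 (-2.31 to -1.80, edgeR adjusted p = 0.0646 to 0.141). Of all genes 35.5% passed both limits. Rpl3 rose to 13688, 13962 and 12814 (log2 fold change 0.69 ± 0.045 SE, edgeR adjusted p = 2.28e-09) and Rpl22 by 0.39 (edgeR adjusted p = 0.014), a call lost without Vehicle library 3 (0.24, edgeR adjusted p = 0.0767). Rps24, by contrast, fell to 3007, 2831 and 2666 (log2 fold change -0.78 ± 0.070 SE, edgeR adjusted p = 1.09e-07), and Rps4l fell by 1.00 (edgeR adjusted p = 0.000474). On library totals 53 rose and 6 fell. The set was at -0.24 relative to the median gene, necessarily as with TMM, and at -0.052 where only genes with at least 10 counts in every ATM library were kept. The contrast crosses the split in Xist. Monocyte and macrophage markers summed to 13434.5 to 13676 CPM against 3123 to 3374 in Vehicle, and B cell markers to 6148 to 6483 against 1413 to 1546. The erythroid sum was 1171 to 1190 CPM against 6713 to 6806 in Vehicle. Of the 10 mature neutrophil markers 9 fell, and all 14 proliferation markers rose, and the part of these cells and of sex was not tested.

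Combo ATMs had 26 genes above and 18 below Vehicle (25% and 23.7% of all genes), and a median of 0.050 beside 0.00. Rpl3 rose again, to 14625, 14816 and 15332 (log2 fold change 0.84 ± 0.045 SE, edgeR adjusted p = 2.54e-10), and so did Rpsa, from 8101, 7361 and 8144 to 12666, 13242 and 12810.2 (log2 fold change 0.71 ± 0.048 SE, edgeR adjusted p = 4.68e-09), and Rps4x by 0.56 (edgeR adjusted p = 7.32e-07). The groups were apart for Rpl3 and Rpsa. Rps4l, at 1353, 862 and 977 in Vehicle and 288, 215 and 209.6 in Combo, and Rpl39l, at 10 to 25 raw counts in Combo, fell past 2-fold (26.4% of all genes), with log2 fold changes of -2.16 and -1.83 (edgeR adjusted p = 3.01e-07 and 0.00863), the latter without a call where only the 6 libraries compared were fitted (edgeR adjusted p = 0.136). The third fall was that of Rps19bp1 (-0.71, edgeR adjusted p = 0.00142), which passed no longer on library totals (-0.29, edgeR adjusted p = 0.133). On library totals 65 rose and 3 fell, with all genes at a median of 0.41. These groups were on the same side of the split in Xist. The Combo libraries alone carried pancreatic acinar transcripts, at 1134 to 1143 CPM against at most 27.6 elsewhere, and all 9 of those markers in the table rose, as did 13 of 14 proliferation and all 8 T cell markers, while 8 of 10 mature neutrophil markers fell. Monocyte and macrophage markers summed to 10540 to 10579.5 CPM against 3123 to 3374 in Vehicle, and B cell markers to 4209.6 to 4274.5 against 1413 to 1546. Their part was not tested.

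The contrast of Combo with WT uses no Vehicle library but crosses the split in Xist. In it 74 genes rose and 2 fell (17.8% and 23.2% of all genes), the median was 0.56 against -0.12, and on library totals the counts were the same, 74 and 2. Both genes past 2-fold (21.6% of all genes) were falls, in Rps4l (-1.49, edgeR adjusted p = 2.15e-05) and Rpl39l (-1.34, edgeR adjusted p = 0.0492), whose call was lost, leaving 1 fall, without WT library 1 or 2 or Combo library 1 or 2 (-1.45 to -0.90, edgeR adjusted p = 0.0636 to 0.223). Rpl38 went from 1282, 1146 and 1149.5 to 2223, 2274 and 2169.5 (log2 fold change 0.90 ± 0.10 SE, edgeR adjusted p = 1.47e-06). Rps10, another Diamond-Blackfan anemia gene, went from 1560.2, 1383 and 1440.4 to 2696, 2681 and 2652 (log2 fold change 0.87 ± 0.082 SE, edgeR adjusted p = 3.31e-07), and Rpsa from 7054, 7391 and 7279 to 12666, 13242 and 12810.2 (log2 fold change 0.83 ± 0.048 SE, edgeR adjusted p = 1.2e-09). The Combo libraries lay above all WT libraries for each of these. Of the 31 40S genes 29 rose and 0 fell, and of the 45 60S genes 42 rose and 0 fell. All 10 immature granulocyte, all 10 mature neutrophil, all 14 proliferation, all 8 T cell and all 9 acinar markers rose in the same contrast, and 5 of 6 epididymal markers fell. Their part was not tested.

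Whether the tissues differed was tested directly, as the effect in ATMs minus that in BM over the genes in both tables, in a fit of all 30 libraries whose scaling differs slightly from that of either tissue alone. For Vehicle against WT the test called 75 of the 85 genes, all 75 more positive in ATMs, beside 56% of all genes in either direction. The median difference was 0.66 for the 85 genes and -0.065 for all genes. The largest differences were in Rps24 (-0.082 in BM, 1.24 in ATMs, difference 1.32, edgeR adjusted p = 2.04e-15) and Rpl31 (-0.30 in BM, 0.92 in ATMs, difference 1.23, edgeR adjusted p = 5.96e-14). Rpl3, which fell in both tissues, gave no call (difference -0.076, edgeR adjusted p = 0.212). On library totals 58 genes were called, 53 of them more positive in ATMs, beside 61.7% of all genes, with a median difference of 0.29 for these genes and -0.44 for all.

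**Figure D4:**
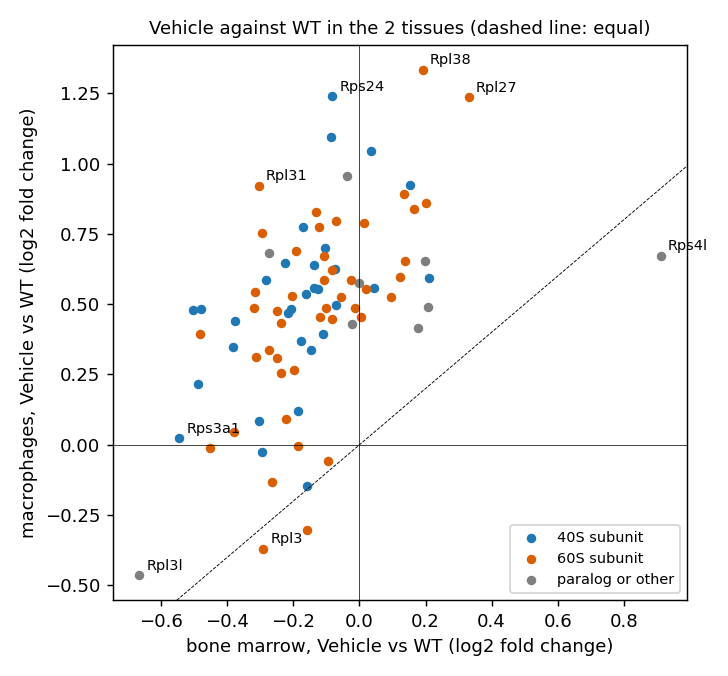
Log2 fold change of Vehicle against WT in bone marrow (horizontal axis) and macrophages (vertical axis), 1 dot per gene, coloured by subunit, with the dashed line marking equal change. Nearly all dots lie above the line, Rps24 at -0.082 and 1.24 being farthest, while Rpl3 (-0.29 and -0.37), Rpl30 (-0.16 and -0.30) and Rps4l (0.91 and 0.67) lie below it.

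For Combo against Vehicle the test called 67 genes, 62 more positive and 5 more negative in ATMs, beside 55.1% of all genes. Examples were Rpl3 (-0.11 in BM, 0.84 in ATMs, difference 0.99, edgeR adjusted p = 3.45e-15), Rps15a (-0.50 in BM, 0.35 in ATMs, difference 0.89, edgeR adjusted p = 1.39e-11) and Rps18 (-0.55 in BM, 0.23 in ATMs, difference 0.83, edgeR adjusted p = 5.48e-13). The 5 negative differences included those of Rpl7l1 (0.14 in BM, -0.33 in ATMs, difference -0.43, edgeR adjusted p = 0.000175), Rps4l (-0.78 in BM, -2.16 in ATMs, difference -1.35, edgeR adjusted p = 2.98e-05) and Rpl3l (0.24 in BM, -1.82 in ATMs, difference -2.03, edgeR adjusted p = 0.0328). On library totals 78 genes were called, 77 of them more positive in ATMs, beside 63.3% of all genes, and the median difference was 0.83 for these genes and 0.55 for all. Depth, sorting and cell makeup differ between BM and ATMs, so tissue and these cannot be told apart.

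The balance of the subunits was read as the ratio of their summed counts. The ratio of 60S to 40S counts in BM was 1.151 to 1.161 in WT, 1.187 to 1.190 in Vehicle, 1.161 to 1.168 with the agonist, 1.200 to 1.206 with the antibody and 1.163 to 1.164 in Combo. Vehicle and antibody libraries lay above the rest and did not overlap with each other. In ATMs the ratio was 1.437 to 1.453 in WT and 1.349 to 1.376 in Vehicle, 1.382 to 1.424 with the agonist, 1.341 to 1.367 with the antibody and 1.331 to 1.348 in Combo, so that WT lay above every other group. The 40S and 60S medians of the log2 fold change were -0.35 and -0.36 with the antibody in BM and 0.62 and 0.54 in Combo against WT in ATMs.

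Paralogs are set here beside their parent genes. In BM, Rps27l, a p53 target, fell with the antibody (-0.79, edgeR adjusted p = 1.97e-20), as did its partner Rps27 (-0.77, edgeR adjusted p = 5.33e-05) at 71 to 116 raw counts. Rpl7l1 was at -0.27 in Vehicle against WT (edgeR adjusted p = 6.91e-11), and Rpl7 at -0.45 (edgeR adjusted p = 4.7e-22). With the agonist in BM Rpl36al fell and the X-linked Rpl36a rose, at -0.56 and 0.22 (edgeR adjusted p = 3.31e-20 and 4.35e-08), and in ATMs Rpl22 passed the test where Rpl22l1 did not, the values for Rpl22l1 and Rpl22 being 0.054 and 0.31 (edgeR adjusted p = 0.749 and 0.0463). The differences between partners were not tested.

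Other genes of the translation machinery were read from lists made beside these. Of all genes 37.8% rose and 38.8% fell in BM Vehicle against WT. The shares were 36.4% and 36.6% with the antibody and 37.9% and 35.8% in Combo. All-gene medians there lay from -0.017 to 0.021. In ATMs 24.3% rose and 32.6% fell in Vehicle against WT (median -0.21), and 25% and 23.7% in Combo against Vehicle (0.00). The counts below are to be read beside these shares. Among 17 further TOP mRNAs, chiefly elongation factors and subunits of eIF3, BM with the antibody had 7 higher and 8 lower than Vehicle, with a median of -0.064, ranging from Eif4b, a helicase cofactor (0.56, edgeR adjusted p = 3.83e-23) to Hnrnpa1, a splicing factor (-0.89, edgeR adjusted p = 4.24e-11). Combo BM gave 6 higher and 9 lower (median -0.085). In Vehicle ATMs against WT 6 rose and 4 fell, led by Tpt1 (0.81, edgeR adjusted p = 1.34e-10), with Nap1l1, a histone chaperone, lowest (-0.79, edgeR adjusted p = 3.97e-05). The ribosomal component Fau, which falls outside the symbol rule, fell in BM with the antibody (-0.48, edgeR adjusted p = 2.27e-06) and rose in Vehicle ATMs (0.70, edgeR adjusted p = 7.15e-08).

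Factors that assemble ribosomes were counted in the same contrasts, beside the same shares of all genes. In BM Vehicle against WT 23 of 34 rose and 3 fell (median 0.22), with Rrp12, a small-subunit export factor, highest (0.90, edgeR adjusted p = 9.65e-17) and the snoRNP pseudouridine synthase Dkc1 lowest (-0.53, edgeR adjusted p = 3.52e-16). With the antibody 4 rose and 23 fell (median -0.33), and in Combo BM 9 rose and 19 fell (-0.14). In ATMs 18 rose and 6 fell in Vehicle against WT (0.39), while in Combo against Vehicle 7 rose and 19 fell (-0.33). Of the initiation factors in BM, 12 of 19 rose and 5 fell in Vehicle against WT, with Eif6, which keeps free 60S subunits from joining, highest at 0.77 (edgeR adjusted p = 3.77e-18), and 4 rose and 12 fell with the antibody.

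The 77 mitochondrial ribosomal protein genes mostly fell with each treatment in BM: 50 with the agonist, 65 with the antibody and 55 in Combo against 10, 5 and 11 that rose, at medians of -0.30, -0.41 and -0.29. With the agonist 36.3% of all genes fell and 36.5% rose (median 0.010), and the shares for the other contrasts are given above. The falls of the mitochondrial genes were led with each treatment by Mrpl30, at -1.09, -1.41 and -1.38 (edgeR adjusted p at most 9.42e-22). Of 15 regulators of TOP translation and ribosome synthesis 8 rose and 3 fell in Vehicle BM against WT (median 0.11), 9 rose and 4 fell in Combo BM against Vehicle (0.13), and 6 rose and 4 fell in Vehicle ATMs against WT (0.36). Larp1 rose in Vehicle BM against WT (1.29, edgeR adjusted p = 7.51e-32), and the translation repressor Eif4ebp1 rose in Vehicle ATMs against WT (2.37, edgeR adjusted p = 3.42e-13) and fell in Combo ATMs against Vehicle (-1.83, edgeR adjusted p = 8.4e-12). Of 10 p53 response genes 6 rose and 2 fell in Vehicle BM against WT (median 0.31), and 2 rose and 7 fell in Combo BM against Vehicle (-0.53). Cdkn1a, a cell cycle inhibitor, rose in Vehicle BM (2.91, edgeR adjusted p = 3.7e-34) and fell in Combo BM (-2.72, edgeR adjusted p = 2.82e-33).

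Within the set the size of the change varied with coding length. Across the 83 genes with a coding length, the BM log2 fold change with the antibody correlated with log length at Pearson's r = 0.51 and Spearman's rho = 0.54, and in Combo at 0.49 and 0.44, as a description over genes that share libraries. The 59 genes of at most 600 nt had a median of -0.46 with the antibody, and the 24 longer ones -0.14. Other genes at a log2 CPM of at least 5 leaned the same way but less, at -0.17 for 754 short and 0.025 for 4696 long genes. In Combo the short and long ribosomal genes were at -0.42 and -0.094. For Vehicle against WT the relation had the other sign among these genes, r = -0.34, and the short and long medians were -0.11 and -0.26.

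**Figure D5:**
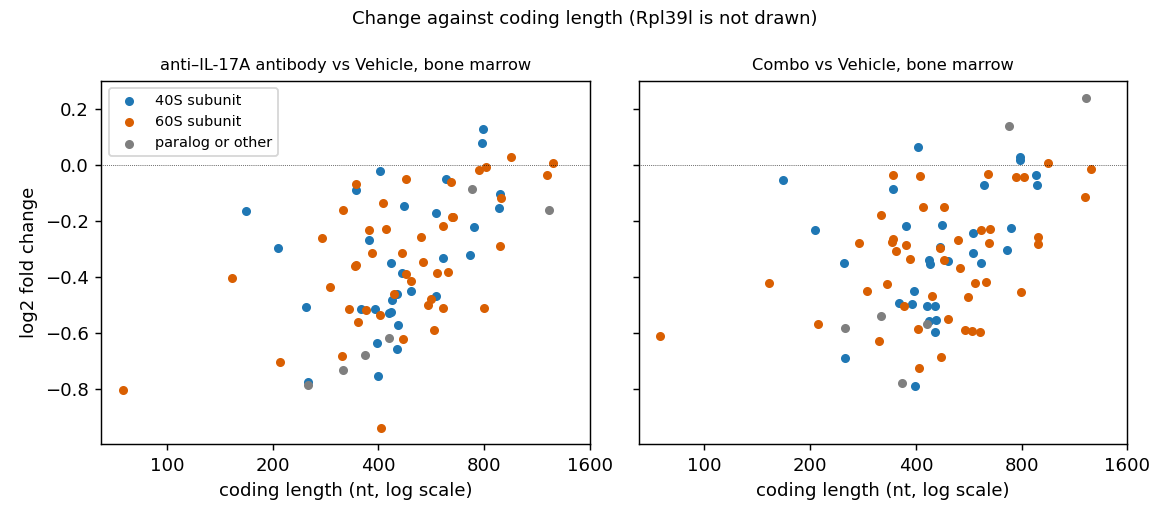
Log2 fold change in bone marrow against coding length (log axis) for the ribosomal protein genes, with the antibody (left) and in Combo (right), coloured by subunit, without Rpl39l. Genes over 600 nt lie nearer to 0, at medians of -0.14 and -0.094, than shorter ones, at -0.46 and -0.42.

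Levels per kilobase of transcript ranked Rps9, Rplp1 and Rps12 first in BM, at 2598, 2255 and 2226 CPM per kb averaged over the 15 libraries, and Rpl13, Rps14 and Rps25 in ATMs, at 571, 510 and 465. At the bottom stood the paralogs Rpl39l (0.866) and Rpl3l (1.14) with Rpl30 (3.82) in BM, and Rpl3l (0.667) and Rpl30 (1.30) in ATMs. Rpl30 and Rps27, which encode core ribosomal proteins, had only 61 to 103 and 62 to 137 raw counts in the BM libraries. Many of these genes have processed copies elsewhere in the genome, and only uniquely mapped reads had been counted. For 31 of the 85, over 50% of the 100-base words of the transcript recur in another annotated gene, Rps27 at 98.4%, Rpl30 at 32.5% and Rpl39l at 0%. The median level was 1066 CPM per kb in BM for those 31 and 782 for the 9 without any repeated word. These 9 include Rpl39l, Rpl3l, Rps19bp1 and Rps27l, which are not core genes and stood at 0.866, 1.14, 17.3 and 168. The medians thus compare unlike genes and do not show what copies do to the counts. Levels of single genes with such copies are uncertain.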

How the data were processed

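Bone marrow (BM) cells and sorted adipose tissue macrophages (ATMs) were profiled by polyA, paired-end, unstranded RNA-seq in 30 libraries. Alignment by the authors was to mm10, with STAR 2.7.2a, and uniquely mapped reads were counted per gene with featureCounts 2.0.1 on GENCODE M22, without strand, so that reads of overlapping genes are shared. The deposited values are raw counts, from which genes with few counts had been removed: the smallest gene total was 55 in BM and 54 in ATMs. Groups and replicate numbers came from the sample titles.

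Here each tissue was fitted over its 15 libraries with edgeR 4.0.16 (R 4.3.3) by quasi-likelihood, with TMM factors, filterByExpr, which removed 0 genes, and Benjamini-Hochberg adjustment over all genes, at 0.05. The test was checked on simulated data with less spread than the real ATM libraries and far fewer changed genes. That check does not cover the spread and shifts in composition seen here. The difference between tissues was fitted over all 30 libraries and the 13076 shared genes. The biological coefficient of variation was 3.51% in BM and 32.5% in ATMs, so small changes were easier to call in BM. Pairs of replicates were compared, and none agreed within sampling noise. The text names, per comparison, the 3 largest rises and falls past the threshold, every gene also past a 2-fold change, a fixed set (Rplp0, Rplp1, Rplp2, Rpsa, Rps27a, Rps6, Rps19, Rpl5, Rpl11, Rpl3), paralog pairs, and the extremes of pathway lists. Genes and lists were chosen with earlier results of these data known. X-linked genes, low-count genes and those highest per kilobase were named after their values were seen. Gene models came from GENCODE M21 and start sequences from RefSeq, both of the GRCm38 build. Alternatives were DESeq2 1.42.0, its size factors, library totals, filters, fits of 6 libraries, left-out libraries and a replicate block. Nothing in the labels pairs same-numbered libraries, so the block was not used in the reported fits. Results for a few genes that the rule would name are not reported here.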

Additional observations from a re-analysis of the deposited data

Results flagged for a closer look

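The effect of Vehicle against WT differed between ATMs and BM, by the test of the difference itself, for 75 of the 85 genes, all more positive in ATMs, beside 56% of all genes in either direction, and the largest differences were 1.32 on the log2 scale for Rps24 and 1.23 for Rpl31. The median difference was 0.66 for the 85 genes and -0.065 for all genes. The effect of Combo against Vehicle differed for 67 genes, 62 more positive and 5 more negative in ATMs, beside 55.1% of all genes in either direction. Its median difference was 0.43 for the 85 genes and 0.15 for all genes. The effect was more positive in ATMs by 0.99 for Rpl3, 0.89 for Rps15a and 0.83 for Rps18, and the difference was -0.43 for Rpl7l1, -1.35 for Rps4l and -2.03 for Rpl3l, the last at 1 to 69 raw counts per ATM library.

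Rpl10l, an autosomal retrogene copy of the X-linked Rpl10 best known from testis, was in the ATM table alone and so outside the 85 genes. It reached 449 counts in a library given the antibody, above every control library. Its counts were 60, 63 and 64 in WT, 1, 0 and 0 in Vehicle, 235, 168 and 193 with the GLP-1R agonist, 449, 307 and 408 with the antibody and 0, 0 and 0 in Combo. The libraries at or near 0 are those with high Xist counts. The part of sex and of cell makeup was not tested.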

How the results depend on the processing

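On library totals the median log2 fold change of the 85 genes was -0.26, 0.24, -0.19, -0.36 and -0.62 in BM for Vehicle against WT, the GLP-1R agonist, the antibody and Combo against Vehicle, and Combo against WT, and 0.085, 0.14, 0.28 and 0.47 in ATMs for the first 4 of these. Relative to the median gene each of these stayed within 0.01 of its TMM value. It could not do otherwise, since scaling shifts every gene of a contrast nearly alike, so this is no test of robustness. With library totals 43 genes passed for ATM Vehicle against WT and 68 for ATM Combo against Vehicle. With DESeq2 size factors, and with the DESeq2 test, the median was -0.35 for BM Combo against Vehicle and -0.13 for the agonist in ATMs. With only the 6 libraries compared it was -0.36 for BM Combo against Vehicle and 0.61 for ATM Combo against WT. Keeping only genes with at least 10 counts in every library brought the ATM median relative to all genes from 0.74 to 0.53 for Vehicle against WT, from -0.27 to -0.11 for the agonist and from -0.24 to -0.052 for the antibody. Requiring a change over 2-fold left 0, 0, 1, 1 and 1 genes in BM and 5, 3, 2, 2 and 2 in ATMs. Rps2 in BM Combo against WT turned to -0.030 on library totals. Leaving out single libraries gave medians from -0.18 to -0.095 for BM Vehicle against WT, -0.38 to -0.36 for the antibody, -0.37 to -0.33 for Combo, and 0.47 to 0.57 for ATM Vehicle against WT. Total counts of calls then stayed within 1.5 times, but rises in BM Combo against Vehicle went from 2 to 1 without Vehicle library 2 or 3 or Combo library 1 or 3, and falls in ATM Combo against WT from 2 to 1 without WT library 1 or 2 or Combo library 1 or 2. With the replicate block ATM Vehicle against WT gave 67 rises and 1 fall in place of 68 and 1, and the calls of Rpl3l with the antibody (-2.09, edgeR adjusted p = 0.100) and Rpl39l in Combo against WT (-1.32, edgeR adjusted p = 0.0861), both in ATMs, were lost. Same-numbered libraries did not deviate together beyond a correlation of 0.052 (lowest -0.023, over genes). In the 10 comparisons 2 to 6 of 6 libraries correlated best with their own number. All 6 did so in BM Combo against WT, and in ATMs for Vehicle against WT and for the agonist and the antibody against Vehicle. Whether same-numbered libraries share a batch is not given in the labels and cannot be told from this. Over the other settings 420 values of named genes kept their direction and side of the threshold, 14 lost their call and 1 reversed. At 3 libraries a group the precision for genes under about 100 counts is low.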
